A study of Mus musculus with 4 samples.

Results

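The 7 genes described here encode eosinophil granule proteins, eosinophil-associated ribonucleases and a receptor that eosinophils depend on: Epx, Prg2, Ear1, Ear2, Ear10, Rnase2a and Il5ra. Probes were assigned to them through their RefSeq transcripts, and the 7 genes are 7 of the 20886 genes that could be named on the array. They were chosen by their signal differences between Sf3b1+/- and wild-type (WT) cells, which were known for both settings of the study. Those differences are therefore given as a description, with no test.

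RNA came from LSK cells, the lineage-negative, Sca-1-positive and c-Kit-positive fraction of mouse bone marrow that holds stem cells and multipotent progenitors, sorted by flow cytometry from mice of strain C57BL/6. Sf3b1+/- mice carry 1 working copy of Sf3b1, which encodes a subunit of the U2 spliceosome particle, in all tissues as far as the labels tell, and the labels do not give the deleted part. The 4 groups were Sf3b1+/- native cells and WT native cells, both from donors aged 20 weeks, and Sf3b1+/- transplanted cells and WT transplanted cells. For transplanted cells, whole marrow of CD45.2+ donors was put into lethally irradiated CD45.1+ hosts, and CD45.2+ LSK cells were sorted 9 months later. The labels give neither the age of the marrow donors nor the hosts' genotype beyond CD45.1. There was 1 single-colour array per group, and no difference between groups has a replicate check. The design text counts 4 mice for the native and 5 recipients for the transplanted collection, without saying how many were pooled on an array.

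As background, eosinophils store cationic proteins in granules and release them against parasites and in allergic inflammation. Epx, eosinophil peroxidase, makes hypohalous acids, and Prg2, major basic protein, disrupts membranes. The Ear genes and Rnase2a are mouse members of the RNase A family related to human eosinophil-derived neurotoxin and eosinophil cationic protein, and some of them are also expressed by macrophages. Il5ra encodes the chain that binds interleukin-5, the main growth factor of the lineage, and signals with the common beta chain Csf2rb. Transcription of the granule genes begins in bone marrow progenitors and depends on GATA1 and on C/EBP factors.

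Ear1, Ear10 and Ear2 have closely related sequence around their transcription start, and that of the ribonuclease gene Rnase2a is further away. The order of levels of these 4 genes over the 4 arrays is given further on, and whether promoter sequence bears on it was not tested. RefSeq promoters of the mouse assembly GRCm38.p6, from 250 bases before to 50 bases after the start, were matched for 6 of the 7 genes. The 4 ribonuclease promoters and that of Epx are shown 5′ to 3′ on the gene's strand, in lower case with matches to GATAA (read TTATC on the other strand) and to TTGCNNAA (TTNNGCAA on the other strand) in capitals. These are core letters of sites for GATA and C/EBP factors, and the motifs do not overlap in these promoters.
Ear1 at chr14:43819590-43819889, minus strand: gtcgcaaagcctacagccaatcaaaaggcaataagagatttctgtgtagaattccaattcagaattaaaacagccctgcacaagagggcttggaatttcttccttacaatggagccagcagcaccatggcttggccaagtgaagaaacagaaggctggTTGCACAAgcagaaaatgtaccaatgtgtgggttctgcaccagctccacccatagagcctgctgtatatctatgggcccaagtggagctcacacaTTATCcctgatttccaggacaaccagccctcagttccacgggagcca
Ear10 at chr14:43923547-43923846, minus strand: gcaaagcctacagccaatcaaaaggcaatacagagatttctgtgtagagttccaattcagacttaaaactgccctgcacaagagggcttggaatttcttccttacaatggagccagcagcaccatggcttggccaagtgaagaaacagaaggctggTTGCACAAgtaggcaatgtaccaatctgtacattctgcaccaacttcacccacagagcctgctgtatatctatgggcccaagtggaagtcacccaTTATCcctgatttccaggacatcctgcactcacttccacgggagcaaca
Ear2 at chr14:44102404-44102703, plus strand: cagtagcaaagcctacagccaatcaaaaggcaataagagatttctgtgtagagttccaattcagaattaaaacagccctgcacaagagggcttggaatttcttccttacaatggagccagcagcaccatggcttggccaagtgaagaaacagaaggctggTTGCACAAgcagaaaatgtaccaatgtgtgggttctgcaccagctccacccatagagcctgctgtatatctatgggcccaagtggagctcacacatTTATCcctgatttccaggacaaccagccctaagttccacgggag
Rnase2a at chr14:51256063-51256362, minus strand: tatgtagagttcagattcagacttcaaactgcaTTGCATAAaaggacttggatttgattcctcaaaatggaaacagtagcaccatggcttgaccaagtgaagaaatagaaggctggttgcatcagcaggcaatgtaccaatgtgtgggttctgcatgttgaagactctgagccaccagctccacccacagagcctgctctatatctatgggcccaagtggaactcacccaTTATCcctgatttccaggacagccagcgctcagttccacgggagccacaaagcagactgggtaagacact
Epx at chr11:87875487-87875786, minus strand: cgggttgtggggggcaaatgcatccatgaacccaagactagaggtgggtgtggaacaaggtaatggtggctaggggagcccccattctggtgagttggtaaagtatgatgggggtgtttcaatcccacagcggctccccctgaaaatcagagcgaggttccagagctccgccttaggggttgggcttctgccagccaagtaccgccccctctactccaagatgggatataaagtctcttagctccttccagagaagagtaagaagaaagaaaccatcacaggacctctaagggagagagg
The Ear1 and Ear2 promoters were identical over 97.0% of 303 aligned columns, Ear1 and Ear10 over 91.4% and Ear10 and Ear2 over 89.5%. Rnase2a was further away, with an identity of 66.4% to Ear1, 67.1% to Ear10 and 64.9% to Ear2. Pairs of unrelated genes aligned the same way lay near the 50.6% of Ear1 and Epx. Both motifs were found in all 4 ribonuclease promoters. The promoters of Ear6 and Ear14, RNase A genes outside the 7, held GATAA and no match to TTGCNNAA. The motif TTGCNNAA lay 92 bases before the start in Ear1, 94 in Ear10, 90 in Ear2 and 217 in Rnase2a, while GATAA on the other strand lay 4, 2 and 7 bases after the start in Ear1, Ear10 and Ear2 and 20 bases before it in Rnase2a. Il5ra held GATAA 73 bases before its start, and the Epx window held neither motif. GATAA was thus found in 5 of 6 promoters, against 25.8% of all 27025 promoters in the table, and TTGCNNAA in 4 of 6, against 10.8%. Because 3 of these promoters are near-copies of each other, their matches are not separate events, and a match is only a match of letters.

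Each of the 7 genes was read by 1 probe with 1 spot per array, and each was well above background on all 4 arrays by the scanner software's call. Close paralogs may share probe signal, so the values of Ear1, Ear2, Ear10 and Rnase2a may read each other's transcripts. Signals are in array units after scaling by the 75th percentile of detected signal on each array, and the error beside a signal is the scanner software's own error for that spot, which covers neither mouse nor sorting. The 432 probes with replicate spots give a second measure of the technical spread, taken between spots of a probe within an array. A difference between single spots then had an SD of 0.251 on the log2 scale for signals of 40 to 100 units. The SD was 0.152 for 100 to 300 units and 0.109 for 300 to 1000 units. This measure does not cover the spread between arrays. Arrays lay on 1 slide and were scanned together, and 47.7% to 51.5% of the spots were well above background. The stem and progenitor markers were well above background on all 4 arrays for 10 of 10 genes, with Kit at 7323, 6717, 5619 and 4993 units in Sf3b1+/- native, WT native, Sf3b1+/- transplanted and WT transplanted cells. Sf3b1 itself read 328 ± 33.1 units in Sf3b1+/- native cells and 436 ± 43.8 in WT native cells, and 253 ± 25.5 in Sf3b1+/- transplanted cells and 273 ± 27.6 in WT transplanted cells, which is a log2 difference of -0.41 and -0.11. Whether its probe lies in the deleted part was not tested.

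Signal from the granule protein gene Epx was higher in Sf3b1+/- cells in both settings. The Epx probe (NM_007946, chromosome 11) gave 244 ± 24.8 units in Sf3b1+/- native cells and 109 ± 12.1 in WT native cells. In transplanted cells it gave 206 ± 20.9 units in Sf3b1+/- cells and 60.3 ± 7.48 in WT cells. Both Sf3b1+/- arrays lay above both WT arrays. The log2 differences were 1.16 (scanner error 0.22) in native cells and 1.77 (scanner error 0.23) in transplanted cells, where the difference ranked 35 from the top among the 13033 genes compared. Between the Sf3b1+/- arrays the gap was 0.24, within 2 scanner errors, whereas WT transplanted and WT native cells were 0.86 apart.

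Prg2, which encodes the protein of the granule's crystalline core, was higher in Sf3b1+/- transplanted cells, while the native pair lay within 1 scanner error. Its probe (NM_008920, chromosome 2) gave 2009 ± 201 units in Sf3b1+/- native cells and 1865 ± 187 in WT native cells. It gave 2439 ± 244 units in Sf3b1+/- transplanted cells and 1468 ± 147 in WT transplanted cells. The native pair was 0.11 apart (scanner error 0.20), and the transplanted pair 0.73 (scanner error 0.20), which is 1.66-fold. No neighbouring pair in the order of the 4 arrays was more than 2 scanner errors apart.

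The ribonuclease genes on chromosome 14 shared one order of levels. Ear2 (NM_007895) read 1324 ± 132 units in Sf3b1+/- native cells and 551 ± 55.3 in WT native cells. It read 535 ± 53.6 units in Sf3b1+/- transplanted cells and 188 ± 19.2 in WT transplanted cells. The Sf3b1+/- transplanted array was thus level with the WT native one, 0.04 below it on the log2 scale. Rnase2a (NM_053113), also known as Ear11, read 632 ± 63.4 units in Sf3b1+/- native cells and 255 ± 26.1 in WT native cells, and 245 ± 24.8 units in Sf3b1+/- transplanted cells and 93.1 ± 10.5 in WT transplanted cells. Ear1 (NM_007894) read 291 ± 29.6 units in Sf3b1+/- native cells and 143 ± 15.5 in WT native cells, and 142 ± 14.7 units in Sf3b1+/- transplanted cells and 49.1 ± 6.97 in WT transplanted cells. Ear10 (NM_053112) read 235 ± 24.0 units in Sf3b1+/- native cells and 117 ± 13.0 in WT native cells, and 117 ± 12.3 units in Sf3b1+/- transplanted cells and 50.7 ± 6.83 in WT transplanted cells. In all 4 genes the Sf3b1+/- native array was highest, the WT transplanted array lowest, and the WT native and Sf3b1+/- transplanted arrays between them differed by 0.06 or less. Every other neighbouring gap in these 4 genes exceeded 2 scanner errors.

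On the log2 scale the genotype difference of Rnase2a was 1.31 (scanner error 0.21) in native and 1.40 (0.22) in transplanted cells. That of Ear2 was 1.27 (0.20) and 1.51 (0.21), that of Ear1 1.02 (0.21) and 1.53 (0.25) and that of Ear10 1.00 (0.22) and 1.21 (0.25) in the same settings. The net signal of Ear1 was 5.57 times the median background around the spot in Sf3b1+/- native cells, against 0.88 times in WT transplanted cells, and that of Ear10 was 4.88 times, against 1.01 times. The lowest values are thus the least precise.

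Il5ra, the receptor gene, was close to its background on each array, and its genotype differences were no larger than about 1 scanner error. Its probe (NM_008370, chromosome 6) gave 79.0 ± 9.45 units in Sf3b1+/- native cells and 65.1 ± 8.94 in WT native cells. It gave 51.1 ± 6.59 units in Sf3b1+/- transplanted cells and 45.9 ± 6.87 in WT transplanted cells. The differences, 0.28 (scanner error 0.26) and 0.15 (scanner error 0.29), were of the size of their errors, and no neighbouring pair of arrays was more than 2 scanner errors apart. At this depth a change of that size was not detectable.

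**Figure D1:**
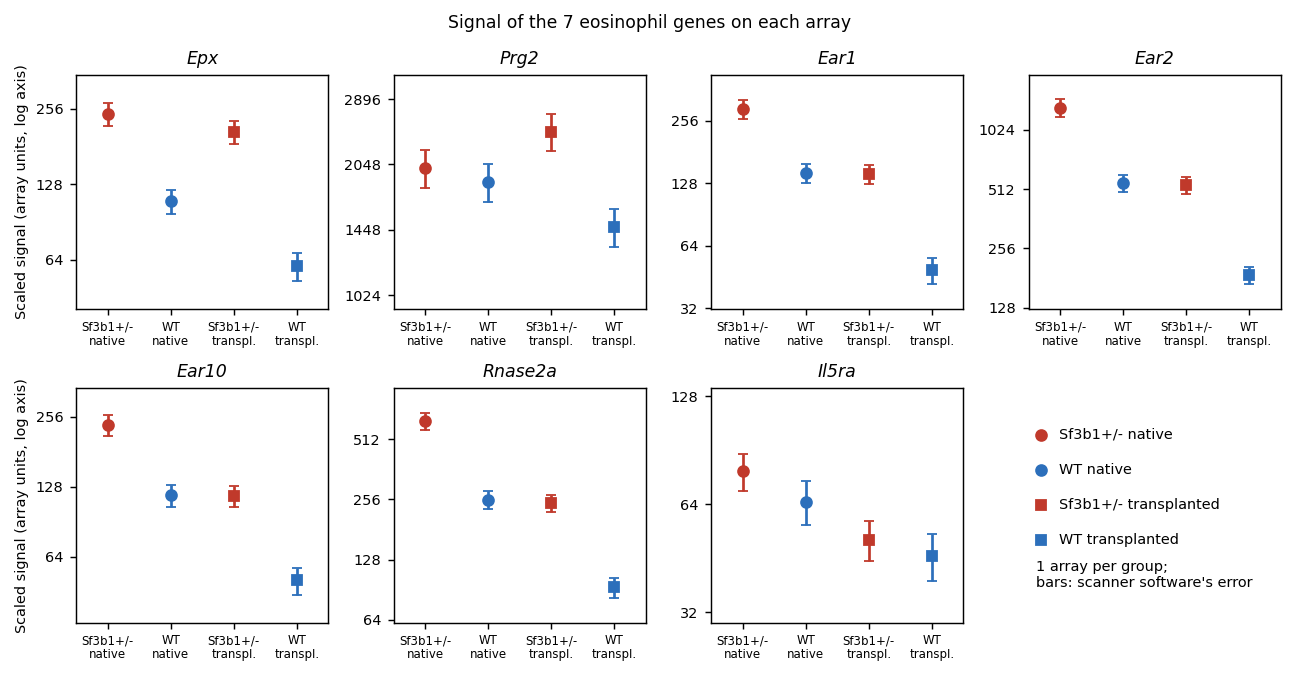
Scaled signal (array units, log axis) of each of the 7 genes on the 4 arrays, with Sf3b1+/- in red and WT in blue, native cells as circles and transplanted cells as squares, and bars for the scanner software's error. Each panel has its own axis. In the 4 ribonuclease genes the WT native and Sf3b1+/- transplanted arrays are level, while Epx on the Sf3b1+/- transplanted array, at 206 units, lies close to the 244 of Sf3b1+/- native cells.

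Counted together, 5 of the 7 genes were at least 1.5-fold higher in Sf3b1+/- than in WT native cells, against 3.25% of all genes compared. In transplanted cells 6 of the 7 were, against 7.80% of all genes, and 5 were in both settings, against 1.07%. None was 1.5-fold lower in either setting, against 4.70% and 6.43% of all genes. The median difference of the 7 was 1.02 in native cells, within a range of 0.11 to 1.31, and 1.40 in transplanted cells, within a range of 0.15 to 1.77. All genes compared had medians of -0.00 and 0.01 and a robust SD of 0.24 and 0.38 in these comparisons. These counts follow from the choice of the genes and nothing is read from them. Whether a difference in a sorted population reflects fewer cells of a type or less RNA per cell cannot be told apart in these bulk samples.

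**Figure D2:**
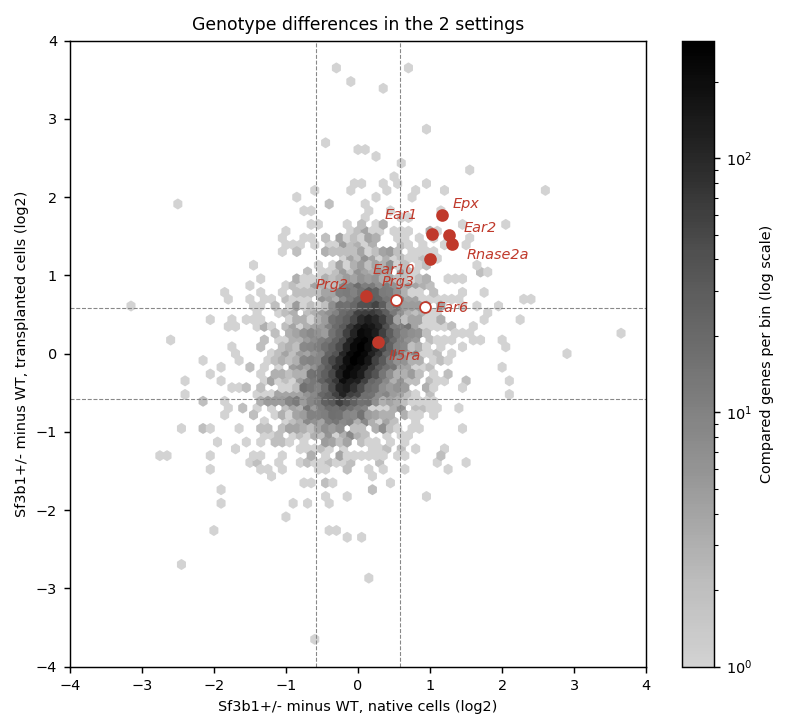
Log2 difference, Sf3b1+/- minus WT, in native cells (horizontal axis) and in transplanted cells (vertical axis) for all 13033 genes compared, as a density of genes per bin from grey to black, with the 7 genes as filled red points and the related genes Ear6 and Prg3 as open points. Dashed lines mark 1.5-fold. Epx and the 4 ribonuclease genes lie in the upper right with other single genes around them, while Prg2 (0.11 and 0.73) lies past 1.5-fold in transplanted cells alone and Il5ra (0.28 and 0.15) in neither.

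The genotype differences were then compared between the 2 settings. Over all genes compared, their robust SD was 0.24 in native and 0.38 in transplanted cells. For Epx the difference was larger in transplanted than in native cells by 0.62 (scanner error 0.32), for Prg2 by 0.62 (0.29) and for Ear1 by 0.51 (0.33). For Ear2, Ear10 and Rnase2a the change was 0.25 (0.29), 0.20 (0.33) and 0.09 (0.30), and for Il5ra it was -0.13 (0.39). With 1 array per group these changes of a difference could not be tested. Only for Prg2 did the change exceed 2 scanner errors.

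The second comparison of the design asks how LSK cells differ between the transplanted and the native setting. The ribonuclease genes had less signal in transplanted cells of both genotypes, whereas the granule protein genes did not share one pattern. Ear2 was lower by 2.47-fold in Sf3b1+/- transplanted than in Sf3b1+/- native cells and by 2.94-fold in WT transplanted than in WT native cells. The same folds were 2.58 and 2.74 for Rnase2a, 2.05 and 2.92 for Ear1 and 2.01 and 2.32 for Ear10. Il5ra was 1.55-fold lower in Sf3b1+/- and 1.42-fold lower in WT cells. Epx was 1.18-fold lower in Sf3b1+/- and 1.81-fold lower in WT cells, and Prg2 stood at a log2 difference of 0.28 (scanner error 0.20) in Sf3b1+/- and -0.35 (scanner error 0.20) in WT cells.

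At least 1.5-fold lower after transplantation were 5 of the 7 genes in Sf3b1+/- cells, against 7.01% of all genes, and 5 of the 7 in WT cells, against 5.74%. None of the 7 was 1.5-fold higher after transplantation in either genotype, against 11.4% of all genes in Sf3b1+/- and 7.95% in WT cells. The 4 that were lower in both genotypes were Ear1, Ear2, Ear10 and Rnase2a, against 2.45% of all genes, and with spike-in scaling 0 were. The median setting difference of the 7 was -1.01 in Sf3b1+/- cells and -1.21 in WT cells, where all genes had medians of 0.01 and 0.00. Since the 4 ribonuclease probes may read shared transcripts, they are not 4 independent observations.

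The setting difference was fitted over both genotypes with limma in an additive model of genotype and setting. The spread in this fit comes from the change of the genotype difference between settings, which was in view when the genes were chosen, so the SE and p-values of the 7 genes are not independent of the choice and are given as a description. The setting coefficient of Rnase2a was -1.41 (SE 0.12, Benjamini-Hochberg adjusted p = 0.0515), that of Ear2 -1.43 (SE 0.14, adjusted p = 0.0552), that of Ear10 -1.11 (SE 0.13, adjusted p = 0.0706) and that of Ear1 -1.29 (SE 0.18, adjusted p = 0.0802). Il5ra stood at -0.57 (SE 0.13, adjusted p = 0.128), Epx at -0.55 (SE 0.20, adjusted p = 0.191) and Prg2 at -0.03 (SE 0.20, adjusted p = 0.927). By limma, 0 of the 7 genes passed an adjusted p of 0.05, a threshold that 0.153% of all genes passed as lower and 0.430% as higher. At an unadjusted p under 0.05, 6 of the 7 were lower, against 12.2% of all genes. Each gene leaves 1 residual degree of freedom in this fit, and the p-values measure only the spread between these arrays. On simulated data with 200 of 13033 genes changed, the adjusted threshold recovered only 7% of 2-fold changes. The share recovered depends on how many genes change, so it may differ on these arrays. Limited to 12175 genes detected on all 4 arrays, the test called 4 of the 7 lower at the adjusted threshold, among 71 in all. With background correction by normexp 4 of the 7 were lower, among 729 of 13033 genes, and with spike-in scaling 2, among 74. Spike-in scaling moved the median setting coefficient of all genes to 0.62, and on that scale the coefficients of Epx, Prg2 and Il5ra were 0.065, 0.58 and 0.046. The differences of Epx in Sf3b1+/- cells and of Prg2 in WT cells then stood at 0.55 and 0.087.

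**Figure D3:**
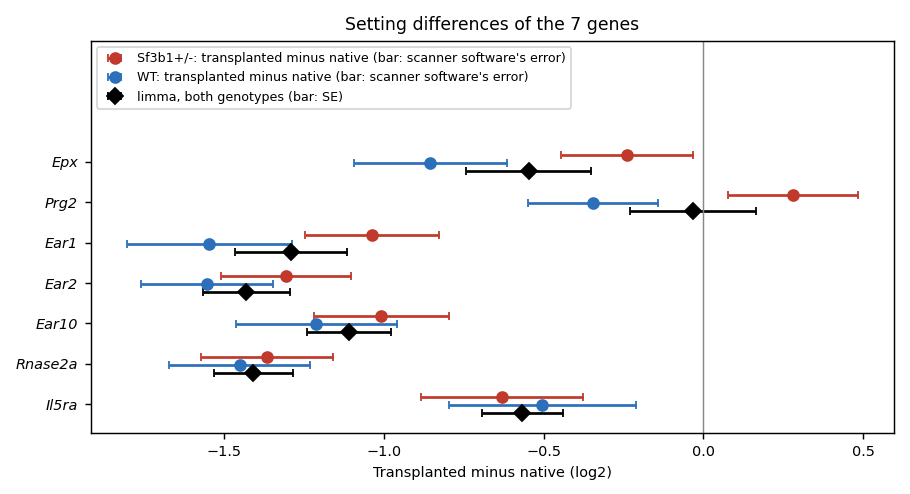
Log2 difference, transplanted minus native, of the 7 genes in Sf3b1+/- cells (red, bars for the scanner software's error), in WT cells (blue, same bars) and as limma's coefficient over both genotypes (black diamonds, bars for the SE). The 4 ribonuclease genes lie between -1.55 and -1.01 in both genotypes, and the genotypes stand on opposite sides of 0 for Prg2, though not with spike-in scaling.

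The compared genes between Ear2 and Rnase2b that are not RNase A genes had median genotype differences close to 0. On chromosome 14 the annotation places 6 genes between Ear1 and Ear10, none of them protein coding, and 11 genes between Ear10 and Ear2, of which 2 are protein coding. Between Ear2 and Rnase2b lie 202 genes with 94 protein-coding ones, so Rnase2a belongs to a separate stretch of the chromosome. Over the 36 genes between Ear1 and Ear6 that were compared and are not RNase A genes, the median genotype difference was -0.11 (native) and -0.15 (transplanted). All of the 36 lie between Ear2 and Rnase2b. No gene between Ear1 and Ear10 or between Ear10 and Ear2 was compared. None of the 36 was 1.5-fold higher in native cells, against 3.25% of all genes. In transplanted cells 2 were, Parp2 and Pip4p1, against 7.80% of all genes. These names were taken after their values were seen.

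Other RNase A genes on the array differed in direction. Ear6, which lies beyond Rnase2a on chromosome 14, read 286 units in Sf3b1+/- native cells and 150 in WT native cells, and 149 units in Sf3b1+/- transplanted cells and 98.6 in WT transplanted cells. Its order of levels was that of the 4 ribonuclease genes above, with genotype differences of 0.93 in native and 0.60 in transplanted cells and a setting coefficient of -0.77 by limma (adjusted p = 0.11). Its promoter was identical to that of Ear1 over 80.7% of the aligned columns, and whether its probe shares signal with the other Ear probes was not tested. Of 21 other RNase A genes listed, 13 were named on the array, 7 were compared, and Ear6 was the 1 gene at least 1.5-fold higher in both settings, a count that was 0 with normexp. The 7 compared genes had a median of -0.32 (native) and -0.26 (transplanted). Rnase12 stood at -1.53 in native and -0.45 in transplanted cells, Ang4 at -0.32 and -0.74, Rnase6 at 0.17 and -0.59, Rnase10 at -0.32 and -0.26, and Ang, angiogenin, at -0.29 and 0.31. Rnh1, the cytoplasmic inhibitor of these ribonucleases, stood at 0.22 and 0.49. Rnase4 was not well above background in native cells and stood at 0.08 in transplanted cells, Ang2 was well above background on 1 array, and Rnase2b, Rnase1, Rnase9, Rnase11 and Rnase13 on none. Ear14, Ear3, Ear4, Ear5, Ear7, Ang3, Ang5 and Ang6 were not on the array under these names.

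Among other granule and lipid mediator genes, Prg3, the gene of a second major basic protein, was the nearest in pattern. It read 117 units in Sf3b1+/- native cells and 81.0 in WT native cells, and 124 units in Sf3b1+/- transplanted cells and 77.3 in WT transplanted cells. Its differences were 0.53 and 0.69, and both Sf3b1+/- arrays lay above both WT arrays, as for Epx. On chromosome 2 it is separated from Prg2 by 1 gene that codes for no protein. Alox5, which encodes the lipoxygenase that starts leukotriene synthesis, stood at 0.90 in native and -0.02 in transplanted cells. Its partner Alox5ap stood at -0.07 and 0.17 and Ltc4s, leukotriene C4 synthase, at -0.06 and -0.39. Alox15 was not well above background on any array. The 4 measured genes had a median of 0.23 (native) and 0.07 (transplanted).

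The regulators of the eosinophil lineage were well above background on all 4 arrays for 9 of 9 genes and differed by genotype in both directions. Gata1 stood at 0.27 in native and 0.40 in transplanted cells, Cebpa at 0.30 and 0.25, Cebpe at 0.40 and 0.04, and Spi1, which encodes PU.1, at 0.09 and 0.27. Gata2 stood at 0.13 and 0.74 and Zfpm1, which encodes the GATA1 partner FOG1, at 0.29 and 0.67. These 2 regulators were at least 1.5-fold higher in transplanted cells, against 7.80% of all genes. Trib1, whose product limits C/EBP-alpha, stood at -1.03 in native and -0.58 in transplanted cells. Trib1 was the 1 regulator at least 1.5-fold lower in native cells, against 4.70% of all genes. Counts over 9 genes are not read further. Id2 stood at -0.19 and -0.31 and Xbp1, which secretory granule proteins of eosinophils require, at -0.09 and -0.09. The 9 regulators had a median of 0.13 (native) and 0.25 (transplanted).

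Receptors showed no difference of 1.5-fold between genotypes in any of the 6 genes measured on 4 of 4 arrays. Of all genes compared, 3.25% were 1.5-fold higher and 4.70% lower in native cells. In transplanted cells 7.80% were higher and 6.43% lower, so a count over 6 genes is not read further. The common beta chain Csf2rb, the signalling partner of Il5ra, stood at -0.24 in native and -0.03 in transplanted cells, and its relative Csf2rb2 at -0.36 and -0.02. Csf2ra stood at -0.05 and 0.14 and Il3ra at 0.07 and 0.33. Siglecf, a surface marker of mature eosinophils, read 461 units in Sf3b1+/- native cells and 436 in WT native cells, and 365 units in Sf3b1+/- transplanted cells and 426 in WT transplanted cells, which is 0.08 and -0.22. Il1rl1, the interleukin-33 receptor, stood at 0.39 and -0.26. Adgre1 (F4/80) was at least 1.47-fold lower in Sf3b1+/- native than in WT native cells, where the Sf3b1+/- array was not well above background, and stood at 0.51 in transplanted cells. Ptgdr2 was not well above background in native cells and stood at -0.09 in transplanted cells. Ccr3, the eotaxin receptor of mature eosinophils, was not well above background on any of the 4 arrays.

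**Figure D4:**
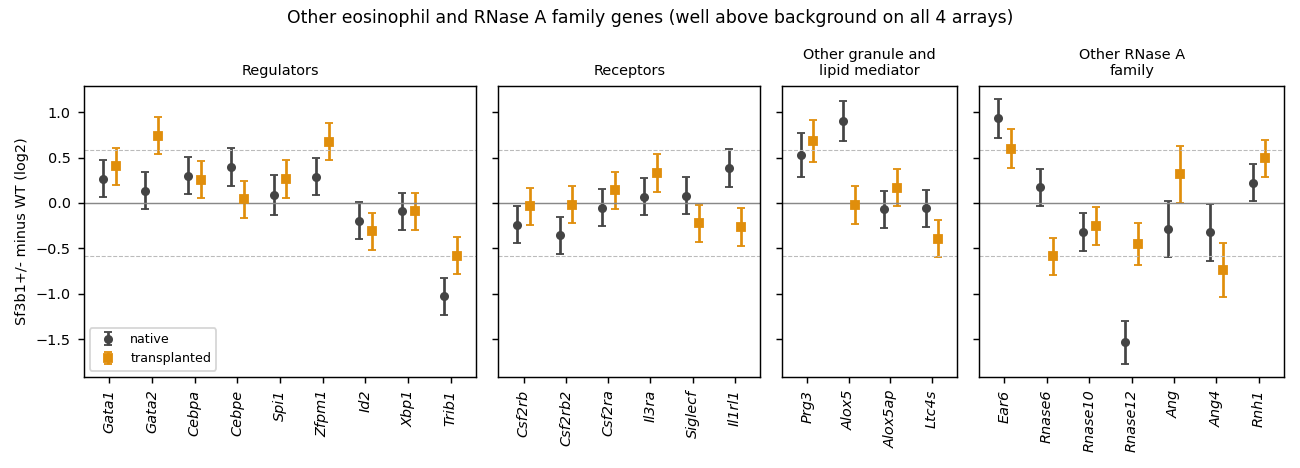
Log2 difference, Sf3b1+/- minus WT, in native cells (dark circles) and transplanted cells (orange squares) for the other eosinophil and RNase A family genes that were well above background on all 4 arrays, with bars for the scanner software's error and dashed lines at 1.5-fold. Ear6 (0.93 and 0.60) is the 1 gene above the upper line in both settings, and Trib1 (-1.03 and -0.58) and Rnase12 (-1.53 and -0.45) lie lowest in native cells.

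Genes of other blood cells also moved with genotype on these arrays, and their part in the differences of the 7 genes was not tested. The 7 megakaryocyte genes differed by a median of 0.68 (native) and 1.27 (transplanted). Of them 4 and 7 were at least 1.5-fold higher, against 3.25% and 7.80% of all genes. Gp1ba (1.13 and 1.19), Gp5 (0.89 and 1.32), Pf4 (0.68 and 0.78) and Ppbp (1.51 and 1.49) were so in both settings, and Vwf reached 1.82 in transplanted cells. Their summed signal was 40114 units in Sf3b1+/- native cells and 25608 in WT native cells. It was 60153 units in Sf3b1+/- transplanted cells and 31448 in WT transplanted cells. Most of it came from Pf4, with 33171 units in Sf3b1+/- native cells and 20687 in WT native cells. Of 7 B cell genes 5 were compared. Their summed signal was 6467 units in Sf3b1+/- native cells and 16699 in WT native cells. It was 4446 units in Sf3b1+/- transplanted cells and 4987 in WT transplanted cells. Most of these last sums came from Cd79b, with 3788 units in Sf3b1+/- transplanted and 3975 in WT transplanted cells. Cd79b, named after its values were seen, stood at -0.47 in native and -0.07 in transplanted cells. Vpreb1 stood at -2.17 and -0.61 and Igll1 at -2.10 and -0.96, Ebf1 stood at -1.27 in native cells without being well above background in transplanted cells, Ms4a1 was well above background on 1 array and Pax5 on none. By limma 2 of these 5 genes were lower in transplanted cells at an adjusted p under 0.05, against 0.153% of all genes. Neither was called with quantile normalization, cyclic loess, no filter or the mean of probes.

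Mast cells and basophils, which share regulators with eosinophils, did not follow the same order of arrays. Their 8 compared genes of 15 had a median genotype difference of 0.21 in native and -0.07 in transplanted cells. Their summed signal was 4768 units in Sf3b1+/- native cells and 4031 in WT native cells, and 7864 units in Sf3b1+/- transplanted cells and 7947 in WT transplanted cells, so it was higher in transplanted cells of both genotypes. Prss34 was at least 1.99-fold higher in Sf3b1+/- than in WT native cells, and Tpsb2 stood at -0.65 in transplanted cells. Mcpt8 and Prss34, both basophil proteases, were higher in transplanted than in native cells by limma, with setting coefficients of 1.58 (adjusted p = 0.0499) and 4.24 (adjusted p = 0.0418). With quantile normalization, cyclic loess, no filter or the mean of probes limma called 0 genes in either direction, these and the B cell genes included. Ms4a2, Mcpt1, Mcpt2 and Cma1 were not well above background on any array.

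Primary granule genes of neutrophils and monocytes differed by less than 1.5-fold in 5 of 5 genes in both settings. Most of all genes compared did too, since 3.25% were 1.5-fold higher and 4.70% lower in native cells. In transplanted cells these shares were 7.80% and 6.43%. The primary granule genes had medians of -0.14 and 0.03, with Mpo at -0.30 in native and Ms4a3 at -0.33 in transplanted cells. Late neutrophil genes had medians of -0.01 and -0.92, with 0 and 5 of 8 genes at least 1.5-fold lower, Lcn2 at 0.35 in native and Chil3 at -1.42 in transplanted cells. Their summed signal was 8311 units in Sf3b1+/- native cells and 8562 in WT native cells, and 8611 units in Sf3b1+/- transplanted cells and 16982 in WT transplanted cells. Monocyte and macrophage genes, listed because macrophages can express Ear genes, had medians of -0.19 and -0.21 over 5 genes, with Csf1r at -0.50 in native and Lyz2 at 0.85 in transplanted cells. Their summed signal was 7179 units in Sf3b1+/- native cells and 9593 in WT native cells, and 15876 units in Sf3b1+/- transplanted cells and 17645 in WT transplanted cells. Their part in the ribonuclease signal was not tested.

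Erythroid genes had medians of 0.04 and -0.12 over 7 genes, with Klf1 at 0.90 in native and Car1 at -0.87 in transplanted cells. T and NK cell genes had medians of -0.39 and -0.55 over 7 genes. Among them Il2rb stood at -1.27 and -0.84, Cd3d was at least 2.73-fold lower in Sf3b1+/- than in WT native cells and stood at -1.28 in transplanted cells, and Cd3g was at least 1.95-fold lower in Sf3b1+/- than in WT transplanted cells. Klrb1c, named after its value was seen, stood at -0.37 and 1.31, the 1 gene of this list at least 1.5-fold higher. The stem and progenitor genes had medians of 0.01 and 0.31, with Hlf at 0.34 in native and Tek at 1.26 in transplanted cells. Of the 10 genes, 0 and 4 were at least 1.5-fold higher, against 3.25% and 7.80% of all genes.

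The profile of the 7 genes over the 4 arrays was compared with that of every other gene. Averaged over the 7, the centred log2 profile was 0.90 in Sf3b1+/- native, 0.02 in WT native, 0.14 in Sf3b1+/- transplanted and -1.05 in WT transplanted cells. The Euclidean distance to this mean was smallest for Gdf15, which encodes a stress-induced cytokine (0.23), Olfm5 (0.25), Prl2c1 (0.30), 5730488B01Rik (0.41) and Shprh (0.44), of which Olfm5 was well above background on 2 arrays and 5730488B01Rik on 3. Among the 7 genes themselves the distance was 0.22 for Ear10, 0.46 for Ear1, 0.59 for Epx, 0.60 for Rnase2a, 0.63 for Ear2, 0.91 for Il5ra and 1.08 for Prg2. No other gene lay closer to the mean than Ear10, and 1378 lay closer than Prg2. The mean holds Ear10 itself and the other ribonuclease genes, whose probes may share signal. It also holds the genotype differences the genes were chosen by, so nothing is read from these ranks. A likeness over 4 arrays is a description of these arrays only.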

How the data were processed

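RNA of sorted LSK cells was measured on 4 single-colour Agilent arrays of design 028005, 1 per group. Per the labels' protocols, 20 ng of total RNA with spike-ins was amplified and labelled with Cy3. The deposited scanner files hold spot intensity after the background subtraction of Feature Extraction 10.7.1.1, per the file headers, with no scaling between arrays and probe positions on mm9. The authors' deposited series table holds a ratio per probe, which from the values is the same signal divided by 1 constant per array; it served as an alternative.

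Replicate spots were averaged and spots marked as outliers left out (112 to 125 per array). Arrays were shifted on the log2 scale to the 75th percentile of the 24731 probes well above background on all arrays, since 49.5% of spots were detected on average. The percentile was 1940, 1652, 2686 and 1823 units for Sf3b1+/- native, WT native, Sf3b1+/- transplanted and WT transplanted cells. Of 55681 probes, 27509 were named through RefSeq accessions of GRCm38.p6, used for names and gene order. The probe with the highest mean stood for a gene, and the 13033 genes well above background on at least 2 arrays were compared, 12175 of them measured on all 4. A gene not well above background on an array is given as a bound against its own signal there or the lowest signal called well above background on that array, whichever is higher.

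The setting coefficient was tested by the two-sided moderated test of limma 3.58.1 (R 4.3.3) with a prior of 3.05 degrees of freedom and Benjamini-Hochberg adjustment over all genes compared, and the fit was checked on simulated data drawn from the fitted variances. In the simulated data 200 of 13033 genes were changed. There an adjusted p under 0.05 by limma recovered 7% of 2-fold and 93% of 4-fold changes, and called 6 unchanged genes. Genotype differences were not tested. Nothing in the labels says whether an array holds pooled mice, and the number of arrays limits the precision. The normexp alternative used the median spot signal, since the mean signal was not among the columns used here. Promoters were aligned with Biopython 1.88.

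The genes, the marker lists and the tests were chosen with earlier results of these data known. Named were every one of the 7 genes, all genes of the regulator, receptor, granule and RNase A lists, from each other list the gene furthest from 0 in each setting and any gene 1.5-fold apart one way in both, the 5 genes nearest in profile, and Sf3b1. A further gene of the B cell list was left out of its counts and sums and is not reported here. Slide and scan could not be used as a block, as all arrays shared 1 slide and 1 scan.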

Additional observations from a re-analysis of the deposited data

How the results depend on the processing

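Under 9 alternatives (percentile over all probes, quantile normalization, cyclic loess, spike-in scaling, normexp with quantile normalization, the authors' series table, all genes measured on 4 arrays, no filter, and the mean of a gene's probes) all 126 genotype differences of the 7 genes kept their sign, and 22 moved by more than the scanner error. The number at least 1.5-fold higher was 5 in native cells, 6 or 7 in transplanted cells and 5 in both throughout. Not all of the 9 could move these differences. Each of the 7 genes had 1 probe and was measured on all 4 arrays. The limit to genes measured on 4 arrays, no filter and the mean of probes therefore left their differences unchanged by construction. The percentile over all probes and the series table only shift each array by 1 constant. The differences of Epx ranged over 0.80 to 1.38 in native and 1.15 to 2.36 in transplanted cells, those of Ear1 over 0.68 to 1.24 and 0.90 to 2.11. For setting, the adjusted p by limma ranged over 0.0043 to 0.173 for Ear2, 0.00566 to 0.170 for Rnase2a, 0.0124 to 0.197 for Ear1 and 0.0179 to 0.183 for Ear10. Spike-in scaling moved the median of all genes to 0.22 and 0.59 for genotype in native and transplanted cells and to 0.80 and 0.43 for setting in Sf3b1+/- and WT cells. With it 0 of the 7 genes, in place of 4, were 1.5-fold lower after transplantation in both genotypes. The setting coefficient turned to 0.065 for Epx, 0.58 for Prg2 and 0.046 for Il5ra, and the setting difference of Il5ra in Sf3b1+/- cells to 0.16. Those of Epx in Sf3b1+/- cells and Prg2 in WT cells turned to 0.55 and 0.087, while Ear1, Ear2, Ear10 and Rnase2a stayed below 0 under all 9. In Sf3b1+/- cells with spike-in scaling, Ear1 and Ear10 came to -0.24 and -0.21, about the size of their scanner errors of 0.21. Of the 7 genes, 2 were lower by limma with spike-in scaling, 4 with normexp and 4 over genes measured on all arrays, in place of 0; the cause was not tested.

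Counts over all genes moved more. By limma 20 genes were lower in transplanted cells, against 74 with spike-in scaling, 729 with normexp, 71 over genes measured on all arrays, 3 with the series table and 0 with quantile normalization, cyclic loess, no filter or the mean of probes. The genes higher numbered 56, against 5350, 563, 193, 4 and 0 in the same order. Genes at least 1.5-fold higher and lower in native cells numbered 423 and 613, against 1056 and 319 with spike-in scaling, 56 and 162 with normexp, 223 and 414 over genes measured on all arrays and 1131 and 1752 with no filter. In transplanted cells they numbered 1016 and 838, against 1198 and 619 with quantile normalization, 1307 and 556 with cyclic loess, 6540 and 100 with spike-in scaling, 512 and 226 with normexp and 1842 and 2147 with no filter. For setting in WT cells they numbered 1036 and 748, against 857 and 991 with the percentile over all probes, 867 and 950 with quantile normalization and 4489 and 201 with spike-in scaling, and in Sf3b1+/- cells 1482 and 914, against 9263 and 99 with spike-in scaling. In both settings 139 genes were higher (758 with spike-in scaling, 21 with normexp, 72 over genes measured on all arrays, 298 with no filter). In both settings 202 were lower (24 with spike-in scaling, 43 with normexp, 134 with cyclic loess, 523 with no filter), and 319 were lower after transplantation in both genotypes (53, 169 and 654 with spike-in scaling, normexp and no filter). Of 702 counts of the gene lists, 631 stayed within 1.5 times. No paired analysis was possible because each group has 1 array and the groups share only replicate number 1.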
